A study of Mus musculus with 13 samples.

Results

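The genes described here are 9 transcriptional regulators of muscle identity, Tbx15, Sim1, Six2, Six4, Eya1, Emx2, Pitx1, Tbx4 and Lbx1, of 49315 genes counted by RNA sequencing of mouse skeletal muscle. They were picked by symbol, as a check on which muscle had been dissected, when results of these libraries were already known, and the values that prompted the choice are their levels over the study's 4 groups. Every group difference of the 9 genes is therefore given as a description, with its error and without a test. Only Six2, Six4, Emx2, Pitx1 and Lbx1 carry a homeobox. Tbx15 and Tbx4 are T-box factors, Sim1 is a basic helix-loop-helix PAS factor, and Eya1 is a phosphatase that acts as a co-activator without binding DNA itself. All 9 passed the low-count filter, which 16496 genes passed.

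The libraries came from 3 HFSC KO, 4 HFSC flox, 3 chow KO and 3 chow flox samples. KO stands for mice lacking miR-181a2b2 on both alleles in the whole body (miR-181a2b2-/-), and flox for mice whose locus carries floxed alleles (miR-181a2b2flox/flox), which the sample titles call WT. Each genotype was fed chow or a diet abbreviated HFSC, which the labels leave unexplained. Hindlimb ischemia is named for the series as a whole, but no label says which muscle or limb was taken, whether it was ischemic, or how old the animals were, and no Cre driver is named. Nothing in the labels says that each sample was a separate animal, so the errors and p-values rest on variation among the samples given, part of which may be technical.

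Each library held between 20830943 and 45710227 reads assigned to genes. Levels are counts per 1000000 reads (CPM) with library sizes scaled by TMM factors (a trimmed mean of log ratios between libraries), and 3 reads, the limit used for a gene with no read, corresponded to 0.0633 to 0.152 CPM. The tissue label was borne out by the myosin transcripts, with Myh4 at 25232 to 84328 CPM, while the keratinocyte gene Krt14 had at most 3 reads and the heart gene Nkx2-5 at most 1 read in any library; Krt10 (51 to 101 reads) and Myh6 (48 to 415 reads) of the same marker lists were detected. The extraction protocol in the labels names white adipose tissue. The summed CPM of 8 adipocyte markers spanned 482 to 751 for HFSC KO, 239 to 509 for HFSC flox, 207 to 271 for chow KO and 260 to 375 for chow flox, with Adipoq at 7.11 to 30.7 CPM and Fabp4, which endothelium also expresses, at 153 to 553 CPM. The chow flox libraries were uneven: the summed CPM of 10 fibroblast markers was 3611, 6468 and 1286 in replicates 2, 3 and 4, while it spanned 2544 to 3083 in HFSC KO, 2960 to 4218 in HFSC flox and 472 to 680 in chow KO.

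Homeoproteins of the Six4 kind bind MEF3 sites in muscle genes and recruit Eya co-activators, and in mice such complexes are known to turn on glycolytic, fast-fibre genes. Tbx15 marks fast glycolytic fibres in mice, Lbx1 guides the migration of muscle precursors into the limb bud, and Sim1 is transcribed in such precursors. Pitx1 and Tbx4 are factors of the developing hindlimb, while Emx2 is best known for building the cerebral cortex, the urogenital tract and the shoulder blade. In adult mice, many factors of this kind keep different levels in different muscles of the same animal.

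The microRNAs of the locus deleted in KO mice and sites that could pair with them are shown first, because the deletion defines the genotype. In mice the same mature strands are also made from another locus, miR-181a1b1. The mature strands are from RefSeq (GRCm38.p6, both on the plus strand, at chr2:38852741-38852763 and chr2:38853845-38853868), with the seed, bases 2 to 8, in capitals.
mmu-miR-181a-5p: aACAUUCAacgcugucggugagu
mmu-miR-181b-5p: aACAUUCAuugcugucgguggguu
Both strands share the seed, whose 7-base match is TGAATGT and whose 8-base match is TGAATGTA. In the longest 3' UTR of each gene's principal GENCODE transcripts, Sim1 held the 7-base match at 2 positions and Six2, Six4, Eya1 and Pitx1 at 1 position each. Tbx15, Emx2, Tbx4 and Lbx1 held none. Of 13826 tested genes with such a UTR, 17.3% held the 7-base match and 5.6% the 8-base match. The UTR had 4811 bases in Sim1, 3833 in Six4, 1962 in Eya1, 1018 in Pitx1 and 906 in Six2. Members without a match had 1050 to 1636 bases, and the median over these tested genes was 1032.5 bases. A longer UTR offers more positions for a match by chance, and the shares were not adjusted for length. The 8-base match occurred in Sim1 (chr10:50988531-50988554, plus strand) and in Pitx1 (chr13:55825622-55825645, minus strand), printed with 8 flanking bases on each side and the match in capitals.
Sim1 site: atgccatgTGAATGTAtgatgatt
Pitx1 site: ccgtgaacTGAATGTAgggaacct
A match is a string of letters and was not tested as a site of repression.

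The promoters of the members with the widest differences between groups are shown next. They are RefSeq windows (GRCm38.p6) from 250 bases before to 50 bases after the annotated start, at chr10:50895401-50895700 (plus strand) for Sim1, chr19:59458440-59458739 (plus strand) for Emx2 and chr17:85688205-85688504 (minus strand) for Six2. Capitals mark TAAT on either strand, the core letters read by many homeodomains; matches may overlap each other.
Sim1 promoter: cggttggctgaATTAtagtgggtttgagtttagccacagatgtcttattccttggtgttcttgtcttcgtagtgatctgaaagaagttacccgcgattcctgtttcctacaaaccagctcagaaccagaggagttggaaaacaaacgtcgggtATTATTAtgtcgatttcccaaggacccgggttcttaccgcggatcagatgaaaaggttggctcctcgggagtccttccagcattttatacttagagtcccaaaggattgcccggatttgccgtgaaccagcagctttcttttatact
Emx2 promoter: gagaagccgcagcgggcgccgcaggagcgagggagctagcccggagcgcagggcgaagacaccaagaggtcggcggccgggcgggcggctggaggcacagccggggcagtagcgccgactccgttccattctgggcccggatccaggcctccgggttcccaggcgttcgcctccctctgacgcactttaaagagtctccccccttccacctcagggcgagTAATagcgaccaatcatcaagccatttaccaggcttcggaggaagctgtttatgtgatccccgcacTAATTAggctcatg
Six2 promoter: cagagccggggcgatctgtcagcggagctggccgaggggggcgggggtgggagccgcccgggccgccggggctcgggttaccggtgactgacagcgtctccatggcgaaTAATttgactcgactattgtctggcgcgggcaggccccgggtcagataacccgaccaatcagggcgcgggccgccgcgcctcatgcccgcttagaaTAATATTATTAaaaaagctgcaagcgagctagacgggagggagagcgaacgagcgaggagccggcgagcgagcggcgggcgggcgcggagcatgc
TAAT was found 3 times in the Sim1 window, 3 times in that of Emx2 and 4 times in that of Six2, and 58.0% of 32851 promoter windows of this length held at least 1 match. The E-box CANNTG, read by myogenic factors, was found 2 times in the Sim1 window and not in the other two, against 72.3% of windows with at least 1. The MEF3 core TCAGGTT occurred in none of these windows but once in a window of Six4, at position -97 relative to its start, and in 4.1% of all windows. The windows of Six2 and Emx2 were rich in G and C, at 67.3% and 64.3%, and that of Sim1 was not, at 46.0%, against a median of 52.7%.

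The 9 genes spanned a wide range of abundance. Per kilobase of exon, mean TMM-scaled CPM over all 13 libraries was 72.3 for Tbx15 and 25.3 for Lbx1, then 6.25 for Six2, 3.05 for Eya1, 2.52 for Six4 and 1.74 for Tbx4. Emx2 (0.340), Pitx1 (0.213) and Sim1 (0.157) were rare transcripts. Counts ran from 5255 to 11086 reads per library for Tbx15, but from 4 to 84 for Emx2, from 6 to 48 for Pitx1 and from 1 to 120 for Sim1, so counting error weighs on these last 3 genes. Tbx15 varied least between libraries, with 1.67-fold between its highest and lowest CPM, and Sim1 most, at 90.5-fold. Group membership accounted for 95.5% of the variance of log2 CPM between libraries for Emx2 and 92.7% for Sim1, against 42.3% to 69.1% for the other 7 genes. The median share over all 16496 tested genes was 48.8%.

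**Figure D1:**
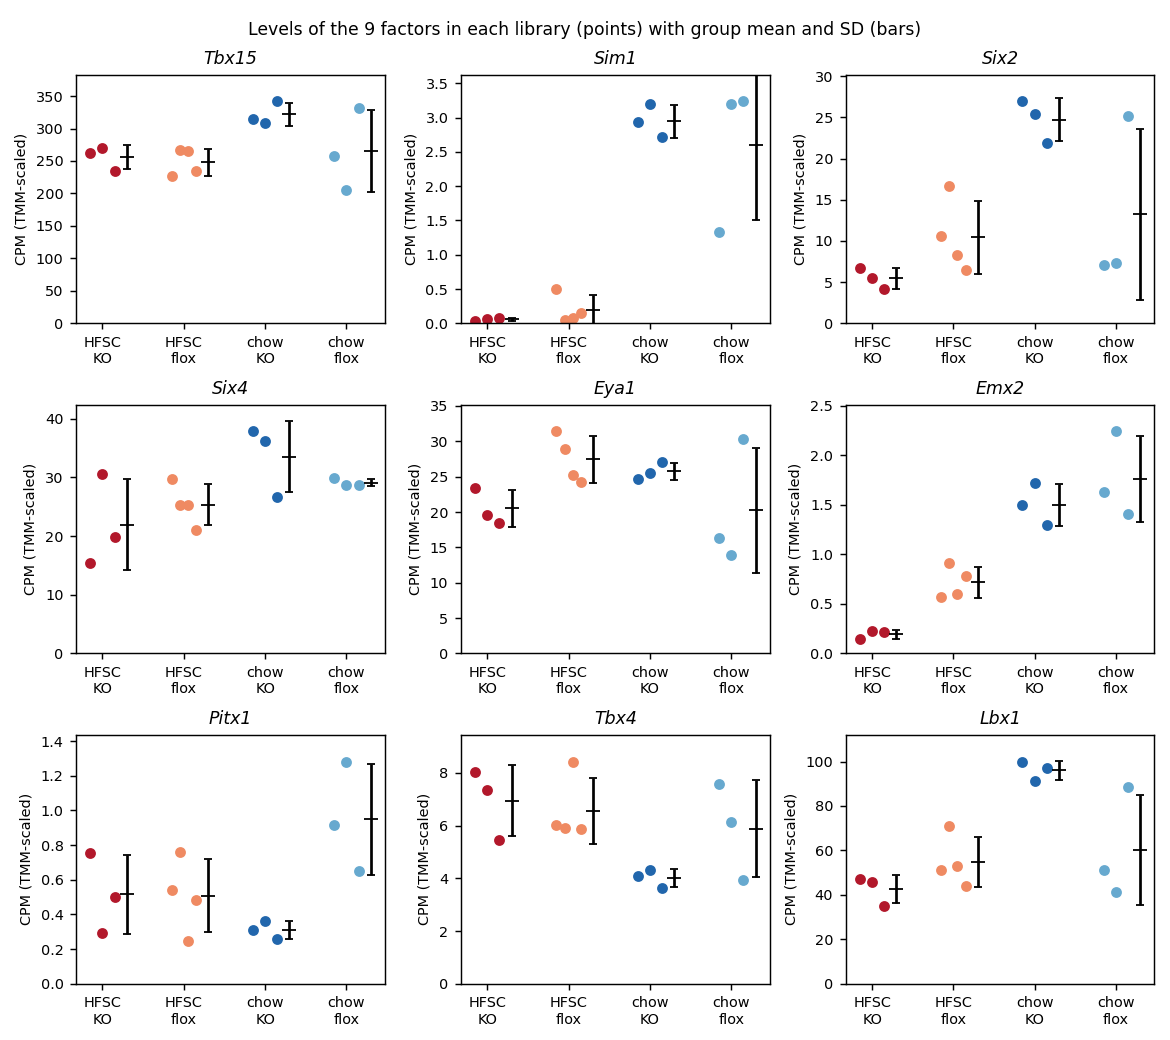
TMM-scaled CPM of each of the 9 genes (vertical axes, from 0) in each library (points, left to right by replicate number) of the HFSC KO, HFSC flox, chow KO and chow flox groups; black bars give the group mean ± SD. All HFSC libraries lie below all chow libraries for Sim1 and Emx2, and chow flox replicate 4 lies apart from chow flox replicates 2 and 3 for Six2, Lbx1 and Eya1.

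Sim1, the bHLH-PAS factor of limb muscle precursors (ENSMUSG00000019913, chr10:50894754-50989152, plus strand), was close to undetected on HFSC and detected in every chow library. The 3 HFSC KO libraries held 1, 2 and 2 reads (0.0358, 0.0656 and 0.0714 CPM), at or below the 3-read limit. HFSC flox replicates 1 to 4 held 15, 1, 3 and 7 reads (0.5065, 0.0507, 0.0824 and 0.148 CPM). Chow KO libraries had 2.93, 3.20 and 2.71 CPM, and chow flox libraries 1.34, 3.21 and 3.24 CPM. No HFSC library reached the lowest chow library of either genotype, whereas the KO and flox libraries overlapped on each diet. Over pooled reads the level in HFSC KO was 0.0196 times that in chow KO, with a 95% counting interval of 0.0063 to 0.0464 (5 against 229 reads), and the level in HFSC flox was 0.0785 times that in chow flox (0.0503 to 0.118, 26 against 259 reads). Intervals of this kind cover counting error alone, since reads without molecular identifiers are not independent molecules. HFSC flox replicate 1 supplied 15 of the 26 reads, and without it the fitted log2 difference in flox was -4.60 in place of -3.68.

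Most slow fibre transcripts were low in the same libraries. The summed CPM of 6 slow fibre markers spanned 539 to 828 for HFSC KO libraries, 539 to 1434 for HFSC flox, 6570 to 7691 for chow KO and 5273 to 6750 for chow flox. HFSC flox replicate 1, which had the most Sim1 among the HFSC libraries, also had the most slow fibre transcript. The 3 genes whose log2 CPM was closest to that of Sim1 over the 13 libraries were Myh7, the slow myosin heavy chain, Myh7b, its relative, and Tnnc1, slow troponin C, with Pearson r of 0.968, 0.968 and 0.963. These values mostly reflect 2 clusters of libraries, 1 per diet, which share their feeding group: after each group's mean was subtracted, r was 0.498, 0.573 and 0.564. Whether Sim1 and slow fibre transcripts come from the same cells was not tested. In bulk tissue fewer cells of a type and less RNA per cell cannot be told apart.

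**Figure D2:**
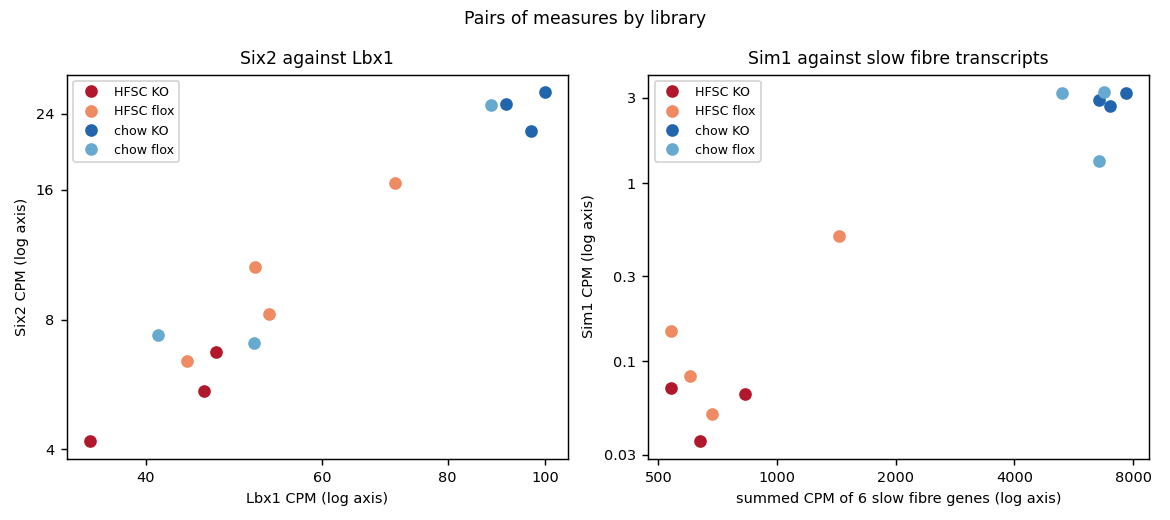
Left, Six2 against Lbx1, both in TMM-scaled CPM on log axes; right, Sim1 CPM against the summed CPM of 6 slow fibre genes on log axes; each point is 1 library, coloured by group. Six2 and Lbx1 rise together over the 13 libraries, but their order of libraries differs within chow KO, chow flox and HFSC flox. The Sim1 panel shows the HFSC libraries apart from the chow libraries, with HFSC flox replicate 1 nearest to chow.

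Emx2, the cortical and urogenital homeobox gene (ENSMUSG00000043969, chr19:59458372-59465357, plus strand), was lower in HFSC than in chow and lowest in HFSC KO. HFSC KO libraries had 0.143, 0.229 and 0.214 CPM, HFSC flox libraries 0.574, 0.912, 0.604 and 0.781 CPM, chow KO libraries 1.501, 1.72 and 1.29 CPM, and chow flox libraries 1.63, 2.24 and 1.41 CPM. The 3 steps HFSC KO, HFSC flox and chow did not overlap, whereas chow KO and chow flox did. The log2 fold change of HFSC against chow was -2.91 ± 0.33 (SE) in KO and -1.31 ± 0.25 in flox, and that of KO against flox was -1.84 ± 0.32 on HFSC and -0.23 ± 0.27 on chow. HFSC KO libraries held only 4, 7 and 6 reads, so the pooled ratio to HFSC flox, 0.279, had a counting interval of 0.156 to 0.470. Of its exonic bases, 264 are shared with the antisense gene Emx2os, and without a stated strand setting reads of the pair cannot be told apart there. The genes with the closest pattern over 13 libraries were Zfhx4 (r = 0.925), Slc7a2 (0.915) and Tmem106c (0.912), and on deviations from group means these values were 0.201, 0.200 and 0.657. With the summed fibroblast markers Emx2 had r = -0.282 over 13 libraries, but 0.727 on deviations and 0.828 on deviations without chow flox. The part of these cells in its level was not tested.

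Emx2 and Sim1 were thus both low on HFSC. Their r was 0.841 over 13 libraries and -0.185 on deviations from group means. HFSC KO replicate 2 held 1 read of Sim1 and 4 of Emx2. With counts this low, counting error weighs on the deviations, which cannot show whether both genes were low in the same libraries of a group. Emx2 differed between KO and flox on HFSC without overlap, while for Sim1, at 5 against 26 pooled reads, these groups overlapped.

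Six2, a homeobox gene best known in kidney progenitors (ENSMUSG00000024134, chr17:85684277-85688274, minus strand), and Lbx1, the homeobox gene of migrating limb muscle precursors (ENSMUSG00000025216, chr19:45232684-45235812, minus strand), followed a second pattern. Six2 had 6.73, 5.47 and 4.18 CPM in HFSC KO, 10.6, 16.6, 8.24 and 6.42 CPM in HFSC flox, 27.0, 25.4 and 21.9 CPM in chow KO, and 7.08, 7.37 and 25.2 CPM in chow flox. Lbx1 had 47.0, 45.8 and 35.2 CPM in HFSC KO, 51.4, 70.8, 53.1 and 44.0 CPM in HFSC flox, 99.97, 91.4 and 96.9 CPM in chow KO, and 51.3, 41.2 and 88.3 CPM in chow flox. For both genes chow flox replicate 4 and the 3 libraries of chow KO were high, HFSC flox replicate 2 came next, and chow flox replicates 2 and 3 lay among the HFSC libraries.

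The split within chow flox set the size and the sign of some group differences of these genes. HFSC KO against chow KO gave log2 fold changes of -2.18 ± 0.47 for Six2 and -1.17 ± 0.25 for Lbx1, with no overlap between the libraries. In flox the same comparison gave -0.34 ± 0.42 and -0.14 ± 0.23 with overlap, and without chow flox replicate 4 it gave 0.52 and 0.24. Chow KO against chow flox gave 0.91 ± 0.44 for Six2 and 0.67 ± 0.24 for Lbx1, or 1.78 and 1.05 without chow flox replicate 4. Chow flox replicate 4 also had the fewest fibroblast and the most fast fibre transcripts of its group, with a summed CPM of 7 fast fibre markers of 131636, against 77221 and 55900 in replicates 2 and 3. The part of these cell mixtures in the levels of Six2 and Lbx1 was not tested.

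Six2 and Lbx1 stayed close to each other over the libraries as a whole, though the order of libraries within a group often differed between them. In chow KO replicate 3 was lowest in Six2 and replicate 2 in Lbx1, and in chow flox replicate 2 was lowest in Six2 and replicate 3 in Lbx1. HFSC flox replicates 1 and 3 also swapped order (10.6 and 8.24 CPM of Six2, 51.4 and 53.1 CPM of Lbx1). The log2 CPM of Six2 and Lbx1 correlated with r = 0.973 (Spearman rho = 0.918) over the 13 libraries, which share diet, genotype and cell mixture. After group means were subtracted r was 0.936, it was 0.910 on such deviations without the chow flox libraries, and it was 0.959 without the 2 libraries farthest from the median of Six2. No other pair of the 9 genes came closer. Tbx15 and Lbx1 followed with 0.878, or 0.895 on deviations, and Six2 and Eya1 reached 0.873 on deviations. The genes outside the 9 with the closest pattern were Dnajc13, Wnt4 and Map3k4 for Six2 (r from 0.969 to 0.974) and Tbc1d16, Pip4k2b and Eif4ebp2 for Lbx1 (0.979 to 0.984). The median r over all tested genes was -0.039 for Six2 and -0.027 for Lbx1. The closest genes were picked for the highest r, so their distance from this median follows from that choice. Both genes ran against the summed adipocyte markers, with r of -0.901 for Six2 and -0.857 for Lbx1 over the 13 libraries. On deviations without chow flox these values were -0.771 and -0.719. With fast fibre markers r on deviations was 0.755 and 0.852, and 0.397 and 0.527 without chow flox. With fibroblast markers r on deviations was -0.638 and -0.746, and 0.226 and 0.015 without chow flox. The part of cell mixture in the closeness of Six2 and Lbx1 was not tested.

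**Figure D3:**
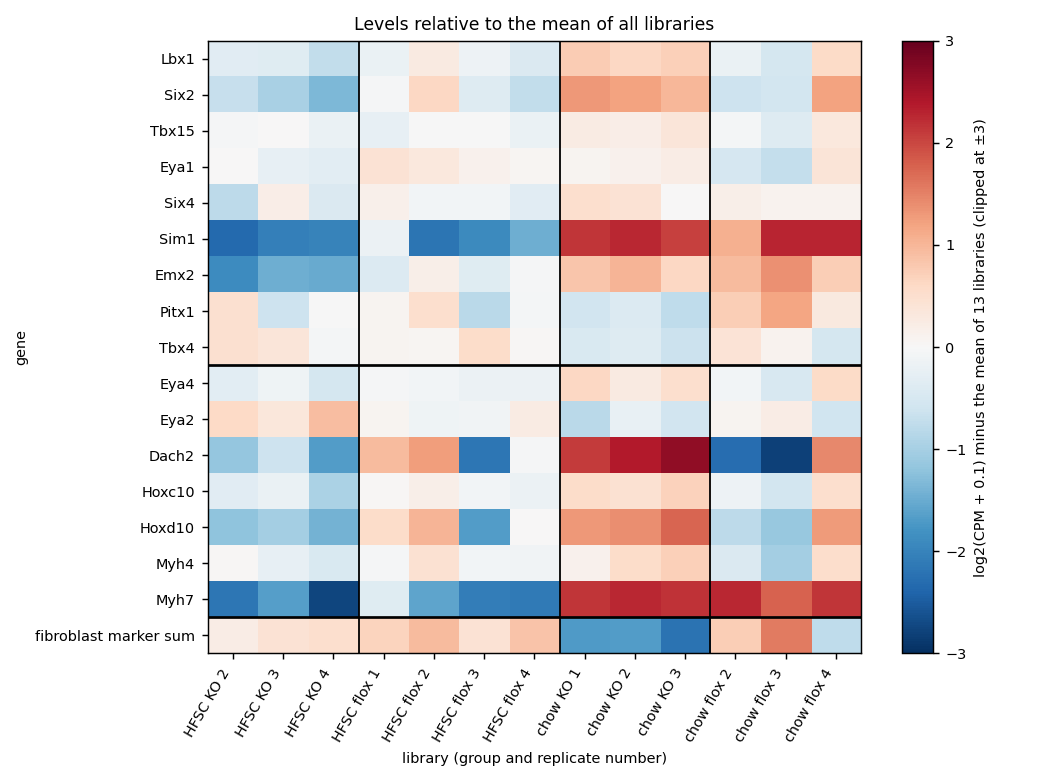
Level of each gene (rows) in each library (columns, group and replicate number) as log2(CPM + 0.1) minus the mean of the 13 libraries, clipped at 3 on either side; the 9 genes stand above the first line, related genes between the lines, and the summed fibroblast markers at the bottom. Chow flox replicate 4 resembles the chow KO libraries for Lbx1, Six2, Dach2 and Hoxd10, and Sim1, Emx2 and Myh7 separate the diets.

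Tbx15, Eya1 and Six4, the remaining factors tied to the fast programme, spanned narrower ranges than Six2 and Lbx1, from 1.67-fold to 2.45-fold over the 13 libraries. Tbx15 (ENSMUSG00000027868, chr3:99240381-99354259, plus strand) averaged 256 ± 18.6 CPM in HFSC KO, 248 ± 20.7 in HFSC flox (n = 4), 322 ± 17.7 in chow KO and 265 ± 63.5 in chow flox (SD, n = 3 in the other groups). Its HFSC KO libraries (234.7 to 269.8 CPM) lay below its chow KO libraries (308.7 to 342.1 CPM), a log2 fold change of -0.33 ± 0.16, and the other comparisons overlapped. Within groups Tbx15 followed the 7 fast fibre markers (r = 0.913 on deviations) and ran against the 10 fibroblast markers (r = -0.876), as did Eya1 (0.865 and -0.877). Without the chow flox libraries these values were 0.650 and -0.403 for Tbx15 and 0.399 and -0.287 for Eya1. The genes closest to Tbx15 over the 13 libraries were Vps4a, Grhpr and Fam160b2 (r from 0.946 to 0.952).

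Eya1, the phosphatase and co-activator (ENSMUSG00000025932, chr1:14168954-14310235, minus strand), had 18.5 to 23.5 CPM in HFSC KO, against 24.3 to 31.4 CPM in HFSC flox and 24.7 to 27.1 CPM in chow KO. HFSC KO thus lay below both neighbours without overlap, at log2 fold changes of -0.42 ± 0.21 and -0.33 ± 0.23. Chow flox ranged from 13.97 to 30.3 CPM and overlapped all the others, with a log2 fold change of 0.44 ± 0.21 for HFSC flox against chow flox, or 0.85 without chow flox replicate 4. Six4, a homeobox factor that works with Eya co-activators (ENSMUSG00000034460, chr12:73099609-73113456, minus strand), overlapped in every comparison, with ranges of 15.5 to 30.6 CPM for HFSC KO, 21.1 to 29.7 CPM for HFSC flox, 26.6 to 37.8 CPM for chow KO and 28.7 to 29.9 CPM for chow flox. Its widest difference was that of HFSC KO against chow KO, -0.61 ± 0.21 on the log2 scale. Among the closest genes were Dazl and Sms-ps for Eya1 (r = 0.944 and 0.930), and Csrnp2, Agrp and Gpr75 for Six4 (0.887 to 0.902). Dazl, Sms-ps, Agrp and Gpr75 were rare, with group means from 0.245 to 0.970 CPM, so counting error weighs on their r. The level of Six4 did not follow that of Lbx1 within groups (r = 0.076) or of fast fibre markers (-0.221). The log2 fold changes of chow KO against chow flox, 0.28 ± 0.16 for Tbx15 and 0.20 ± 0.21 for Six4, turned to -0.02 and -0.13 when libraries were scaled by their totals alone.

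The hindlimb factors Pitx1 and Tbx4 had their highest means in chow flox and in HFSC KO. Pitx1 (ENSMUSG00000021506, chr13:55825051-55836192, minus strand) had 0.295 to 0.752 CPM among HFSC KO libraries, 0.247 to 0.760 in HFSC flox, 0.259 to 0.3596 in chow KO and 0.648 to 1.28 in chow flox. Chow KO lay below chow flox without overlap, at 24 against 102 pooled reads, a ratio of 0.316 with a counting interval of 0.194 to 0.497. The HFSC groups lay between them and overlapped. The predicted genes Gm47071 and Gm28760 share 273 of the exonic bases of Pitx1. The genes closest to it in pattern were Fam174b, Lrrn4cl and Galc (r from 0.871 to 0.913).

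Tbx4 (ENSMUSG00000000094, chr11:85886422-85916097, plus strand) was the only member higher in HFSC KO than in chow KO without overlap, with 8.06, 7.34 and 5.47 CPM against 4.09, 4.32 and 3.62 CPM, a log2 fold change of 0.79 ± 0.24. HFSC flox had 5.89 to 8.43 CPM and chow flox 7.57, 6.14 and 3.93 CPM, the last in replicate 4, which again sat with chow KO. Over all libraries Tbx4 and Lbx1 ran in opposite directions (r = -0.743), though on deviations from group means r was -0.362, and 0.302 without chow flox. The level of Tbx4 went with the summed fibroblast markers (r = 0.763, or 0.450 on deviations and -0.375 on deviations without chow flox). The part of connective tissue cells in this was not tested. The closest genes to Tbx4 were Anapc2, Kctd3 and Mybph (r from 0.942 to 0.952).

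Taking the 9 genes by comparison, HFSC KO and chow KO libraries did not overlap for 7, of which 6 were lower and Tbx4 was higher in HFSC KO, and 50.6% of all tested genes did not overlap between these groups either (26.8% higher and 23.8% lower). HFSC flox against chow flox separated 2 of 9, Sim1 and Emx2, both lower on HFSC (9.86% of tested genes, 4.26% higher and 5.6% lower). KO against flox separated Eya1 and Emx2 on HFSC, both lower in KO (12.7% of tested genes, 7.4% higher and 5.31% lower), and Lbx1, higher, and Pitx1, lower, on chow (24.8%, 10.9% higher and 13.9% lower). Since these levels prompted the choice of the genes, nothing is read from the counts. The median log2 fold change of the 9 genes was -0.61 for HFSC against chow in KO, -0.20 in flox, and -0.36 and 0.20 for KO against flox on HFSC and on chow, and over all tested genes it was 0.02, -0.01, 0.00 and -0.01 in that order. The 2 comparisons within a diet share libraries with the 2 within a genotype.

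**Figure D4:**
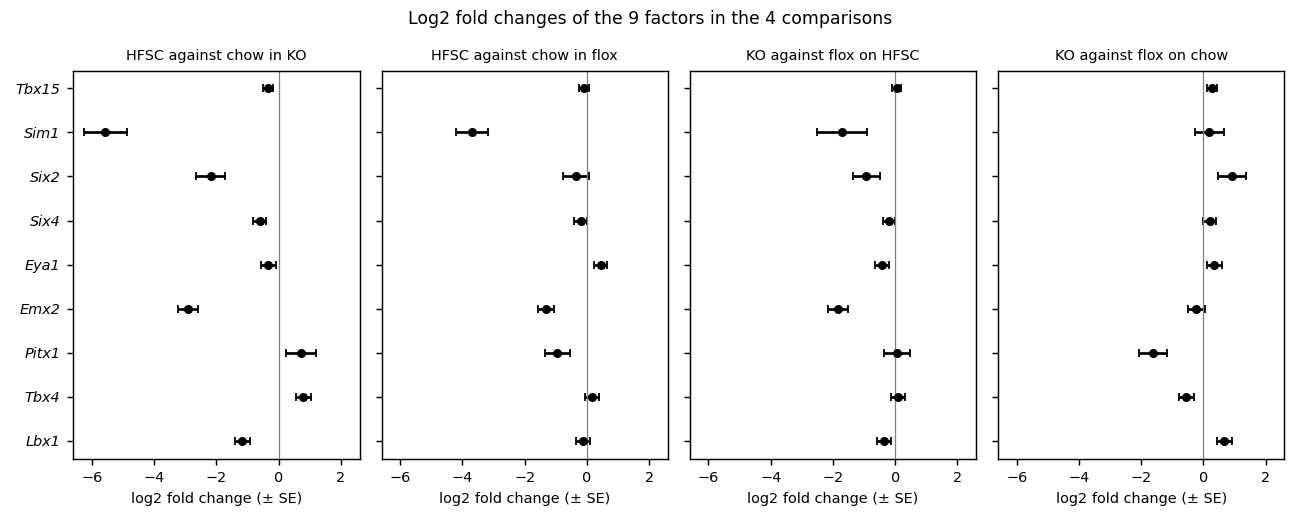
Log2 fold changes (horizontal axes, points) with SE (bars) of the 9 genes (rows) in HFSC against chow in KO and in flox, and in KO against flox on HFSC and on chow. Sim1 and Emx2 are negative in both diet comparisons, at -5.58 and -2.91 in KO and -3.68 and -1.31 in flox.

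Related genes outside the 9 were tested with edgeR's quasi-likelihood test over all 16496 genes with Benjamini-Hochberg adjustment. They were listed when earlier results of these libraries were known, so their counts of calls are not independent of that choice. Of 85 genes in 5 lists, covering the partners of Six4 and Eya1, limb and muscle position factors, myogenic factors, fast fibre genes and slow fibre genes, 77 were tested. Between HFSC KO and chow KO, 7 of these rose and 23 fell, where 14.9% of all tested genes rose and 10.6% fell (25.5% together). Without chow KO replicate 3 or HFSC KO replicate 4 the calls numbered 16 and 17 in place of 30.

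Among the Eya and Dach genes, Eya4, Eya2 and Dach2 were called in HFSC KO against chow KO. Eya4 fell (log2 fold change -0.79, adjusted p = 0.019), and Eya2, another co-activator, rose by 1.21 ± 0.27 (adjusted p = 0.00953), with 3.44 ± 0.722 CPM in HFSC KO and 1.49 ± 0.327 CPM in chow KO. Dach2, a partner of Eya proteins, had 0.716, 1.08 and 0.464 CPM in HFSC KO and 7.64, 9.35 and 11.4 CPM in chow KO (-3.64 ± 1.07, adjusted p = 0.0281). Among the uncalled genes, Dach1 averaged 9.24 ± 3.56 CPM in HFSC KO and 5.67 ± 1.02 CPM in chow KO (0.70 ± 0.31, adjusted p = 0.104), and Six5 and Eya3 differed by -0.08 ± 0.35 and -0.03 ± 0.11. Six3 and Six6, with at most 3 reads over any group, were not tested. The call of Eya2 held without any 1 library. That of Eya4 was lost without chow KO replicates 1 or 3 or HFSC KO replicate 4 (adjusted p up to 0.0627), and that of Dach2 without chow KO replicates 2 or 3 or any HFSC KO library (up to 0.0936).

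Dach2 and Hoxd10, a posterior Hox gene of the limb, showed the split among flox libraries more sharply than the 9 genes did. In chow flox replicates 2, 3 and 4 Dach2 had 0.272, 0.160 and 4.80 CPM and Hoxd10 0.940, 0.721 and 4.27 CPM. In HFSC flox replicates 1 to 4 Dach2 had 3.38, 4.20, 0.302 and 1.67 CPM and Hoxd10 2.53, 3.55, 0.467 and 1.71 CPM. Six2 correlated with Dach2 at r = 0.837 and with Hoxd10 at 0.900 over the 13 libraries, or 0.538 and 0.527 on deviations from group means without chow flox.

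Of 29 tested position factors, 4 rose and 8 fell in HFSC KO against chow KO, where 14.9% of all tested genes rose and 10.6% fell. Sim2, the paralog of Sim1 (17.6 ± 4.86 against 37.0 ± 1.90 CPM, -1.07 ± 0.17, adjusted p = 0.00276), Hoxc10, a Hox gene of the hindlimb and lumbar level (44.8 ± 11.5 against 92.3 ± 7.65 CPM, -1.04 ± 0.24, adjusted p = 0.0111), Hoxd10 (-2.86, adjusted p = 0.0152) and Hoxd9 (-0.74, adjusted p = 0.0187) fell. Msc (1.83), Meox1 (2.11), Tbx2 (1.11) and Msx1 (0.98) rose, with adjusted p from 0.00485 to 0.047 in that comparison. The summed markers of fibroblasts (2544 to 3083 CPM in HFSC KO, 472 to 680 CPM in chow KO) and of macrophages (119 to 140 against 23.3 to 38.5 CPM) were higher in the same libraries, and their part in these changes was not tested. The calls of Sim2, Hoxc10, Msc and Meox1 held without any 1 library. Those of Hoxd10 (without chow KO replicate 3 or HFSC KO replicate 4, adjusted p up to 0.0577), Hoxd9 (without chow KO replicates 2 or 3 or HFSC KO replicates 3 or 4, up to 0.0661), Tbx2 (without chow KO replicates 2 or 3 or HFSC KO replicate 4, up to 0.0764) and Msx1 (without any of 9 libraries, up to 0.183) did not. The forelimb factor Tbx5 was near its limit throughout, with 9 reads in chow flox replicate 3, 2 in chow flox replicate 4, 1 each in chow KO replicate 3 and HFSC flox replicate 4, and 0 elsewhere, and it was not tested.

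Among 14 myogenic factors 3 fell in HFSC KO against chow KO, where 10.6% of all tested genes fell. They were Maf (-0.95, adjusted p = 0.0155), Prox1, which favours slow fibres (-0.99, adjusted p = 0.0379), and Nfix (-0.88, adjusted p = 0.0396). These calls were lost without any of 3, 6 and 9 libraries, with adjusted p up to 0.0554, 0.117 and 0.0984. Of 16 fast fibre genes 2 rose, where 14.9% of all tested genes rose. They were Myh1, the IIx myosin heavy chain (10858 ± 3573 against 5035 ± 903 CPM, 1.11 ± 0.27, adjusted p = 0.0141), and Mylpf (0.68, adjusted p = 0.0347). The list as a whole did not rise: its median log2 fold change was -0.24, against 0.02 over all tested genes. Myh4, the most abundant of them and not called, averaged 44442 ± 7343 CPM in HFSC KO and 71865 ± 14353 CPM in chow KO. The call of Myh1 was lost without chow KO replicate 3 or HFSC KO replicate 3 (adjusted p up to 0.0593), and that of Mylpf without any of the 6 KO libraries (up to 0.0981). Of 11 slow fibre genes 9 fell, and none of these 9 calls was lost without any 1 library (Tpm3, slow tropomyosin, at -3.49 ± 0.21, adjusted p = 9.29e-06). Casq2 (83.6 CPM in HFSC KO, 77.2 CPM in chow KO) and Mybpc1 (2611 and 2541 CPM), the rest of this list, were not called.

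Between HFSC flox and chow flox, 8 of the 77 genes fell, all of them slow fibre genes (Tpm3 at -2.56 ± 0.18, adjusted p = 7.02e-05), where 0.303% of all tested genes fell and 0.115% rose (0.418% together). No gene of the other 4 lists was called by edgeR in flox. Of the 77 genes, 19 had an unadjusted p under 0.05 in edgeR and 12 were called by DESeq2, but edgeR called 1 when only these groups entered the fit. The list count was 15 without chow flox replicate 4, and the calls of Tnnt1 and Tnni1 were lost without any of 6 and 8 libraries. Between chow KO and chow flox, 4 of the 77 fell, Meox1 (-1.90 ± 0.43, adjusted p = 0.0219), Msc (-1.41, adjusted p = 0.0254), Tbx18 (-1.66, adjusted p = 0.0354) and Msx1 (-1.14, adjusted p = 0.0444), where 10.1% of all tested genes fell and 1.38% rose (11.5% together). The count of 4 rested on single libraries: 0 genes were called without chow flox replicate 2 or 3 or chow KO replicate 2 or 3, 2 without chow KO replicate 1 or HFSC flox replicates 1 or 4, 33 without chow flox replicate 4, and 0 when only the chow groups entered the fit. All 4 genes were higher in chow flox replicates 2 and 3 (Meox1 at 5.84 and 8.63 CPM) than in replicate 4 (1.79 CPM), as were the summed fibroblast markers, whose part was not tested.

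Between HFSC KO and HFSC flox none of the 77 genes was called by edgeR (0.0182% of all tested genes were), while 7 had an unadjusted p under 0.05 and DESeq2 called 1. The interaction of genotype and diet was called for 0 of the 77 and for 0% of all tested genes by edgeR, with 18 of the 77 at an unadjusted p under 0.05. DESeq2 called 13 of them, and edgeR called 31 without chow flox replicate 4.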

How the data were processed

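Polyadenylated RNA from 13 samples was sequenced, and the deposited table gives raw counts of reads per Ensembl gene with 1 column per sample. The tools listed in the submitters' processing notes are featureCounts (Subread 1.5.2), STAR 2.5.2b and Trimmomatic 0.36, and the build is GRCm38. The sources used here state no annotation release, strand setting or handling of multiply aligned reads. Symbols and coordinates came from GENCODE M21 (GRCm38), which named all but 345 genes. Samples were grouped by the genotype and diet in their titles.

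One edgeR 4.0.16 model (R 4.3.3) with 4 group means was fitted to the 13 libraries, with TMM scaling, filterByExpr (minimum count 10) and robust quasi-likelihood F tests, at an adjusted p of 0.05. SE is the log2 fold change divided by the square root of F. Correlations were computed on log2 CPM (prior count 2). No replicate pair agreed within sampling noise (chi-square per degree of freedom 10.5 to 193). The test was checked on simulated counts. Members and lists were chosen with earlier results of these data known. Named related genes are the up to 4 called genes per list, comparison and direction with the smallest p. Added to these are the Eya and Dach genes, Six3, Six5 and Six6, Tbx5, Hoxc10, the myosins, Casq2 and Mybpc1. Dach2 and Hoxd10 values per library were chosen after they were seen. The 3 genes closest to a member exclude predicted symbols. Some genes that these rules pick are not reported here. Alternatives were RLE factors, library totals, DESeq2 1.42.0, no filter, a replicate block, only the groups compared, and leaving out each library.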

Additional observations from a re-analysis of the deposited data

Results flagged for a closer look

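In the HFSC flox group, the only one with 4 libraries, 61 genes (the 9 factors, the genes closest to them in pattern and related genes) were screened for a library far from the other 3, and 7 were picked out; chance alone does so in about 1 of 20 groups. Tbx4 had 8.43 CPM in HFSC flox replicate 3, against 5.89 to 6.01 CPM in the other libraries. Kctd3, a gene close to Tbx4 in pattern, had 33.4 CPM in the same library (24.4 to 25.5 in the others), and Galc, close to Pitx1, had 6.62 CPM there (8.61 to 8.97). Myh7b had 6.92 CPM in HFSC flox replicate 1 (2.84 to 3.15), the library with the most Sim1 of the HFSC libraries, and the pseudogene Sms-ps, whose reads may be shared with its parent gene, had 1.38 CPM there (0.612 to 0.659). Myh1 had 11963 CPM in HFSC flox replicate 4 (6707 to 7567), and Myh4 had 70168 CPM in HFSC flox replicate 2 (48017 to 49867), the library with the most Six2 and Lbx1 of its group.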

How the results depend on the processing

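RLE size factors moved no count by over 1.5 times. For KO against flox on chow, 1898 genes were called (4 in the lists); library totals gave 3096 (9), DESeq2 3256 (10), only these groups in the fit 2 (0), and leaving out 1 library 0 to 7158 (0 to 33). For KO against flox on HFSC, 3 genes were called; library totals and only these groups gave 0, no low-count filter 22, DESeq2 165 (1 in the lists), and leaving out 1 library 0 to 20 (0). For HFSC against chow in flox, 69 genes (8) became 4 (1) with only these groups, 392 with DESeq2 and 15 to 1453 (6 to 15) without 1 library. For HFSC against chow in KO, 4201 genes (30) became 1492 to 6127 (16 to 39) without 1 library. The interaction had 0 genes, 161 with no filter, 2025 (13) with DESeq2 and 0 to 5905 (0 to 31) without 1 library. Library totals shifted the median over all genes to a log2 fold change of -0.35 for KO against flox on chow, -0.16 for the diet in flox and 0.21 in KO. They split the calls into 80 higher and 3016 lower genes for KO against flox on chow, and 2407 and 1046 for the diet in KO, against 228 and 1670, and 2459 and 1742, with TMM.

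With the replicate number as a block, the calls were 0 (0 in the lists) for KO against flox on chow, 0 on HFSC, 2382 (19) for the diet in KO and 51 (9) in flox. The numbers do not pair the samples: deviations of same-numbered libraries correlated at -0.341 to 0.078, and the labels tie them to no litter or day.

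The log2 fold changes of the 9 genes moved by over 1 within-group SD in 4 of 36 values with library totals, in 0 with RLE, and in 12 values without 1 library, where 456 moved less. The fold changes of Sim1 and Emx2 in both diet comparisons stayed negative in all of these. No HFSC library reached any chow library for either gene, so leaving out 1 library could not have changed that sign. Depth limits Sim1, Emx2 and Pitx1, where single libraries held under 10 reads. The cause of these shifts was not tested.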
